A study of Mus musculus with 32 samples.

Results

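The 10 genes described here encode cytokines of the interleukin-20 (IL-20) family, their receptor subunits, and a small set of cytokine, receptor and feedback genes linked to the transcription factor STAT3. They are Il19, Il20 and Il24 (ligands), Il20ra, Il20rb and Il22ra1 (receptor subunits), Il6 and Lif (ligands of the IL-6 family), Osmr (the oncostatin M receptor) and Socs3 (a feedback inhibitor). They were chosen by name, not by their measured values, and make up 10 of the 55401 genes in the count files. A filter of at least 1 cpm (reads per 1000000 reads on genes, with TMM-scaled library sizes where levels are given) in at least 1 mouse left 15546 genes for testing, among them 9 of the 10. Il6 did not reach 1 cpm in any mouse, and Il20 passed the filter through UV-exposed mice alone, so that Il20 had to differ between treatments in order to be tested at all.

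IL-19, IL-20 and IL-24 are secreted proteins that act on epithelial cells, keratinocytes above all. They bind a receptor made of IL-20RA and IL-20RB, and IL-20 and IL-24 can also use a receptor made of IL-22RA1 and IL-20RB. IL-22RA1 is in addition the specific subunit of the receptor for IL-22. These receptors, like the gp130 receptors used by IL-6, LIF and oncostatin M, signal through Janus kinases to STAT3. SOCS3 is induced by STAT3 and in turn restrains the receptors, and in skin the same cytokines are known to drive keratinocyte proliferation, antimicrobial peptides and loss of terminal differentiation.

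RNA was sequenced from the dorsal epidermis of 32 mice, each mouse giving 1 library. WT mice of the mixed SKH-1/SV129/BL6/J background (a cross with hairless SKH-1 mice) and their Ppard-/- littermates (labelled KO, deficient for the nuclear receptor PPARbeta) were either irradiated on the back with 1 dose of 120 mJ/cm2 UV or sham manipulated without UV. All were 10-14 weeks old, and the epidermis was separated from the dermis 24 h after exposure. With 2 sexes, 2 genotypes and 2 treatments there were 8 groups of 4 mice, and each genotype and treatment was represented by 8 mice. The comparisons ask how UV changed these genes in each genotype, whether the change differed between WT and KO epidermis, and whether it differed between male and female epidermis.

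Libraries held 22919428 to 40653581 reads on genes. Ppard itself was not lost from the KO libraries: without UV it ranged from 87.3 to 105 cpm in WT and from 70.3 to 88.9 cpm in KO epidermis (log2 fold change -0.26, adjusted p = 0.156). After UV it ranged from 252 to 326 cpm in WT and from 175 to 239 cpm in KO epidermis (log2 fold change -0.42, adjusted p = 0.00114). Which part of the gene is deleted was not given in the sources used here, so these gene-level counts do not check the genotype labels. Keratinocyte markers were abundant in every library. The summed basal keratinocyte markers had a median of 11857 cpm in WT epidermis without UV and of 22466 cpm after UV, while the summed suprabasal markers had medians of 76010 and 21995 cpm (KO: 9593 and 26473 cpm, then 83177 and 22665 cpm). The summed T cell markers went from a median of 155 to 31.1 cpm in WT and from 138 to 56.1 cpm in KO epidermis, and those of monocytes and macrophages from 63.9 to 123 and from 66.5 to 155 cpm. The Langerhans and dendritic cell sums went from a median of 892 to 321 cpm in WT and from 634 to 391 cpm in KO epidermis, and the dermal fibroblast sums from 19.9 to 4.33 and from 39.1 to 11.2 cpm. The neutrophil sums overlapped in all groups (18.5 to 62.3 cpm). Of the 7 neutrophil markers, 4 passed the filter and were tested singly. In WT epidermis 2 were called higher after UV and 0 lower (median log2 fold change 2.05). Of all tested genes, 34.5% were called higher and 36.5% lower there. In KO epidermis 3 were called higher and 1 lower (median 3.55), against 37.3% and 33.5% of all tested genes. Except for that of neutrophils, these sums moved with UV exposure as the results below did. The part of these cells, neutrophils included, in those results was not tested. Skeletal muscle markers varied from library to library, their sum ranging from 0.51 to 2368 cpm and passing 1000 cpm in libraries of each genotype and treatment, and their part was not tested either. In epidermis taken whole, fewer cells of a type and less RNA per cell cannot be told apart. The library of the UV-exposed KO female 54F stood apart, with 1982 cpm of dermal fibroblast markers against a median of 11.2 cpm in its genotype and treatment. Values without it are given for a number of the results that it moved.

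The 3 ligand genes lie next to each other on chromosome 1, all on the minus strand (GRCm38, GENCODE M21 annotation). Il24 spans chr1:130882074-130887454, Il20 spans chr1:130906985-130911451 and Il19 spans chr1:130932656-130940115, so that together they cover 58 kb. The receptor genes are dispersed, with Il20ra on chromosome 10 (chr10:19712570-19760053, plus strand), Il20rb on chromosome 9 (chr9:100457719-100486788, minus strand) and Il22ra1 on chromosome 4 (chr4:135728172-135752140, plus strand). Il20ra overlaps the antisense gene Gm33332, and the kit marks strand, but the strand setting of the counting is not given in the sources used here. Il6 lies on chromosome 5 (chr5:30013114-30019981, plus strand), Lif and Socs3 on chromosome 11 (chr11:4257557-4272514, plus strand, and chr11:117966079-117970047, minus strand) and Osmr on chromosome 15 (chr15:6813577-6874969, minus strand).

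Promoter sequences of 300 bases, from 250 bases before to 50 bases after the annotated start, were available from RefSeq (GRCm38.p6) for 9 of the 10 genes. The exception was Il24, whose promoter was not searched. They were searched on both strands for a STAT motif (TTCNNNGAA), an AP-1 motif (TGANTCA) and a cAMP response element (TGACGTCA), and no promoter of these genes held letters of more than 1 of the motifs. Of 32851 promoters of the same length in the table, 8.3% held the STAT letters, 7.81% the AP-1 letters and 1.79% the cAMP response element. The STAT letters were found in 2 of the 9 promoters, those of Il19 (first base at -225 from the start) and Socs3 (-154). The AP-1 letters were found in 5, those of Il20ra (-164), Il22ra1 (-222), Il6 (-249), Lif (-228) and Osmr (3 bases past the start), and the cAMP response element in none. A match describes the letters in this window and is no evidence of binding. Positions count from the start used by RefSeq, which can lie inside the GENCODE spans given above. The windows of Socs3 and Osmr lie wholly inside those spans. The sequences of 5 genes follow 5′ to 3′ on the gene's strand, with motif letters in capitals. They are shown because they cover the neighbouring ligands Il19 (chr1:130940066-130940365, minus strand) and Il20 (chr1:130911247-130911546, minus strand), both subunits of the shared receptor, Il20ra (chr10:19712337-19712636, plus strand) and Il20rb (chr9:100486424-100486723, minus strand), and the feedback gene Socs3 (chr11:117969317-117969616, minus strand).
Il19: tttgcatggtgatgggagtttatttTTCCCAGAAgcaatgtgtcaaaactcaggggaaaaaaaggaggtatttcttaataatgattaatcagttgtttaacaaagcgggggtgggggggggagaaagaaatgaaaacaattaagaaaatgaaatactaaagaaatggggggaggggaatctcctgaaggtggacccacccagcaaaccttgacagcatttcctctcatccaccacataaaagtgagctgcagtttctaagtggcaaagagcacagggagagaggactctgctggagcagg
Il20: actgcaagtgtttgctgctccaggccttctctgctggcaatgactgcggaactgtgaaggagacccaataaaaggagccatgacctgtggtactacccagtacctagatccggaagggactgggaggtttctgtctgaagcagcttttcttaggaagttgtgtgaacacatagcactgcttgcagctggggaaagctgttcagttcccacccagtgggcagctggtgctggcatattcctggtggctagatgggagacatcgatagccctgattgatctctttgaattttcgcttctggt
Il20ra: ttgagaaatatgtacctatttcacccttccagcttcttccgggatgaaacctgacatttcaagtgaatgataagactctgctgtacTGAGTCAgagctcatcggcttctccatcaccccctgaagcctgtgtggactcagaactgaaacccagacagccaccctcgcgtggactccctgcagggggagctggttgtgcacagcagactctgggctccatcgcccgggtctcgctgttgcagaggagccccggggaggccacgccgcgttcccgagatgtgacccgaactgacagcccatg
Il20rb: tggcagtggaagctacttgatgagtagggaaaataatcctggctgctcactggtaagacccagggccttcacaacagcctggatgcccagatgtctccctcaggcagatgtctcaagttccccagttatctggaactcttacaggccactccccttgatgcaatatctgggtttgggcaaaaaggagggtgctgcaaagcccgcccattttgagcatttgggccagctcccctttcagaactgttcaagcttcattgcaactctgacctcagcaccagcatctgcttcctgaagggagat
Socs3: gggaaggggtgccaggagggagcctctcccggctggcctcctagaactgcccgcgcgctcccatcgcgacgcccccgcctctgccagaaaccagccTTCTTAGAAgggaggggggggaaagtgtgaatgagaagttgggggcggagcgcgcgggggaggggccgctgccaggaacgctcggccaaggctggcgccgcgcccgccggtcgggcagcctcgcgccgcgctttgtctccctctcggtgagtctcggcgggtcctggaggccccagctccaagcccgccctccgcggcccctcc

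UV exposure moved the ligands and the receptor subunits of the IL-20 family in opposite directions in both genotypes. Il24, Il20 and Il19 rose, while Il20ra, Il20rb and Il22ra1 fell. Among the IL-6 family and feedback genes, Lif, Osmr and Socs3 rose, and Il6 went from almost no reads to a few reads per mouse. At an adjusted p under 0.05 (quasi-likelihood test in edgeR, Benjamini-Hochberg adjusted over all 15546 genes), 6 of the 9 tested genes were called higher and 3 lower in WT epidermis, where 34.5% of all tested genes were called higher and 36.5% lower. The same 6 and 3 were called in KO epidermis, against 37.3% and 33.5% of all tested genes. Il20 is among the 6, and its call carries no weight, since it passed the filter through UV-exposed mice alone. With 71% of all tested genes called in WT and 70.8% in KO epidermis, a call by itself says little about these members, and their values carry the description.

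**Figure D1:**
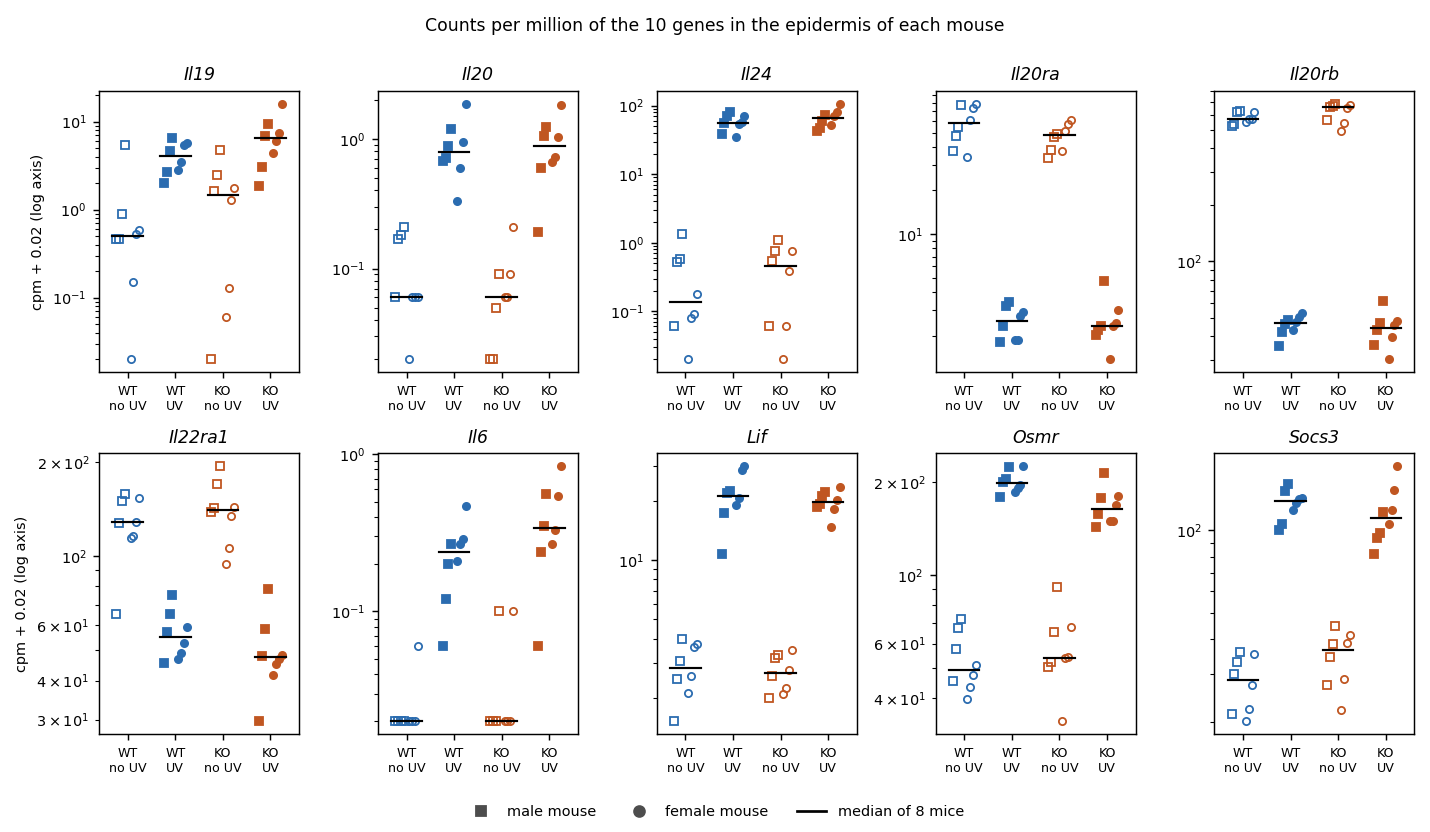
Expression of each of the 10 genes in each of the 32 mice, in cpm plus 0.02 on a log axis that differs between panels, for WT (blue) and KO (orange) epidermis without UV (open) and after UV (filled). Squares are males, circles females, and bars the median of 8 mice. Il24 went from at most 1.31 cpm without UV to at least 34.6 cpm after UV, and Il20rb from at least 491 cpm to at most 61.2 cpm.

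Il24, whose product also carries the name MDA-7, showed the largest increase of the 10 genes. Without UV, WT epidermis had 0.00 to 1.31 cpm with a median of 0.12 cpm, and KO epidermis 0.00 to 1.07 cpm with a median of 0.44 cpm. After UV, WT epidermis had 34.6 to 82.1 cpm (median 56.7) and KO epidermis 42.1 to 106 cpm (median 65.4). Every UV-exposed mouse was above every control of its genotype, and the lowest UV-exposed mouse was more than an order of magnitude above the highest control. In reads, the 8 WT controls summed to 75 and the 8 UV-exposed WT mice to 14113. The log2 fold change, averaged over the sexes, was 8.08 ± 0.48 (SE, n = 8 against 8) in WT (270-fold, adjusted p = 2.6e-14) and 7.25 ± 0.44 in KO epidermis (152-fold, adjusted p = 4.44e-14). Because most controls held few reads, the size of the fold depends on how they are averaged: the ratio of the mean cpm was 172 in WT and 152 in KO epidermis.

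Il20 rose from a much lower base. WT controls had 0.00 to 0.19 cpm (median 0.04), and no control library of either genotype held more than 6 reads. After UV, WT epidermis had 0.31 to 1.84 cpm (median 0.77) and KO epidermis 0.17 to 1.8 cpm (median 0.86). All 8 UV-exposed WT mice were above the WT controls, and 7 of 8 UV-exposed KO mice were above the KO controls. The log2 fold change was 3.74 ± 0.53 in WT (adjusted p = 4.04e-07) and 4.07 ± 0.54 in KO epidermis (adjusted p = 1.39e-07). Because Il20 passed the filter through UV-exposed mice alone, it had to differ between treatments, which leaves this test without weight. Over both genotypes the reads went from 31 to 417, a depth-corrected ratio of 13 with an exact 95% counting interval of 9.04 to 19.4. Such intervals cover counting error alone, since the reads carry no molecular identifiers, and leave out the spread between mice.

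Il19 showed the most overlap among the ligands. Its WT controls had 0.00 to 5.37 cpm (median 0.48) and its KO controls 0.00 to 4.75 cpm (median 1.44). After UV the ranges were 2.01 to 6.51 cpm (median 4.07) in WT and 1.86 to 15.9 cpm (median 6.47) in KO epidermis. Only 3 of 8 UV-exposed WT mice and 5 of 8 UV-exposed KO mice exceeded every control of their genotype. The log2 fold change was 2.51 ± 0.72 in WT (adjusted p = 0.00284) and 2.34 ± 0.69 in KO epidermis (adjusted p = 0.00387). The overlap in WT came from 1 control male, 56M, with 143 of the 225 reads that the 8 WT controls held in all.

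The genes around the ligands did not share one direction. Within 250 kb on either side of the span lie 24 annotated genes, the ligands included, of which 16 are protein coding and 13 passed the filter. Il10, the founding member of the wider family and the nearest gene beyond Il19, stayed below 1 cpm in every mouse, with 33 reads over all controls and 147 over all UV-exposed mice (ratio 4.31, exact 95% counting interval 2.94 to 6.5). The highest value, 0.898 cpm, was that of 54F, against at most 0.417 cpm in the other UV-exposed KO mice. The Il10 ratio was not computed without 54F. Pigr, the receptor that carries polymeric immunoglobulins across epithelia, had medians of 0.53 cpm without and 0.05 cpm with UV in WT and of 0.50 and 0.13 cpm in KO epidermis. It passed the filter through control mice alone and so had to differ between treatments, which leaves its test without weight. On the other side, Mapkapk2, a kinase downstream of p38, rose by 0.43 ± 0.04 and 0.40 ± 0.04, and the kinase gene Dyrk3 by 2.77 ± 0.18 and 2.57 ± 0.18 on the log2 scale. Rassf5, which binds Ras proteins, was lower after UV, with log2 fold changes of -1.39 ± 0.11 and -1.56 ± 0.11. Beyond Il24, AA986860 rose by 0.75 ± 0.11 and 0.49 ± 0.11. Fcmr, the nearest neighbour of Il24 and the gene of the Fc receptor for IgM, was not tested and had medians of 0.00 cpm without and 0.54 cpm with UV in WT and of 0.02 and 0.64 cpm in KO epidermis.

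**Figure D2:**
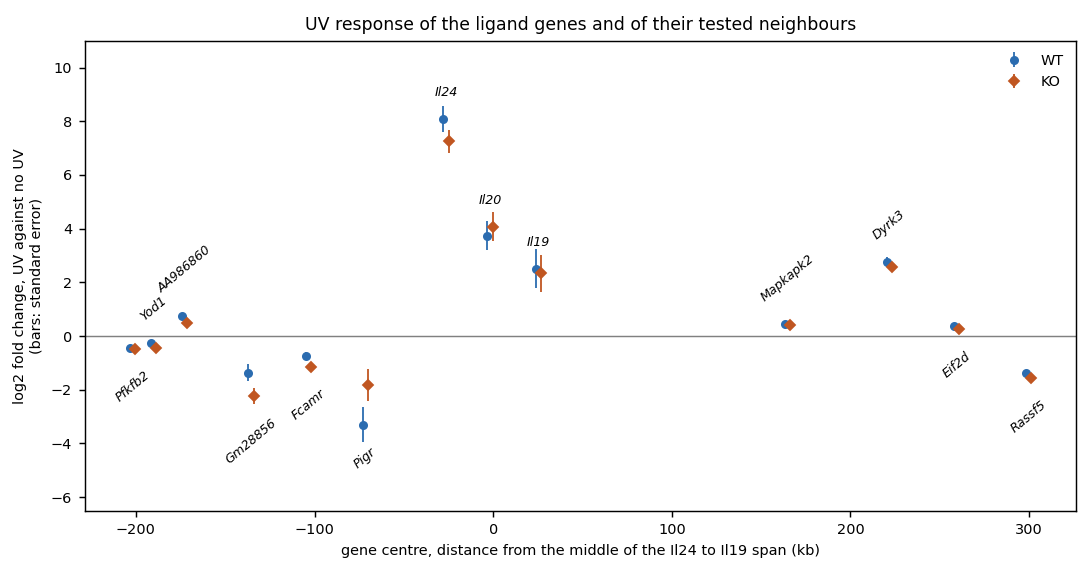
Log2 fold change after UV (vertical axis, bars are standard errors) of the 13 tested genes in and around the ligand span, against the distance in kb of each gene's centre from the middle of the span, for WT (blue circles) and KO (orange diamonds) epidermis. Il24 stands at 8.08 and 7.25 and Dyrk3 at 2.77 and 2.57, while Rassf5 lies at -1.39 and -1.56. Il20 and Pigr, the lowest point in WT, passed the filter through 1 treatment alone.

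Il20rb, the subunit shared by both receptors for IL-20 and IL-24, was the most abundant of the 10 genes in unexposed epidermis and fell in both genotypes and both sexes. WT controls had 525 to 631 cpm (median 572) and KO controls 491 to 687 cpm (median 659). After UV, WT epidermis had 35.4 to 52.9 cpm (median 47.0) and KO epidermis 30.2 to 61.2 cpm (median 44.3). The groups were far apart, and the spread within each was small beside the difference. Il20rb was 12.6-fold lower in WT (log2 fold change -3.66 ± 0.11, adjusted p = 5.35e-20) and 14.1-fold lower in KO epidermis (-3.82 ± 0.11, adjusted p = 4.25e-20).

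Il20ra, the other subunit of the receptor for all 3 ligands, fell further from a lower level. Its controls had 34.1 to 78.7 cpm (median 58) in WT and 33.4 to 61.2 cpm (median 47.8) in KO epidermis. After UV it had 1.78 to 3.41 cpm (median 2.5) in WT and 1.36 to 4.72 cpm (median 2.31) in KO epidermis, with no overlap between treatments in either genotype. The fold change was 23.2-fold lower in WT (log2 fold change -4.54 ± 0.23, adjusted p = 9.75e-16) and 18.4-fold lower in KO epidermis (-4.21 ± 0.23, adjusted p = 3.85e-15). The lowest KO value, 1.36 cpm, and the lowest Il20rb value, 30.2 cpm, were both those of 54F. Without that mouse the KO log2 fold changes were -4.10 ± 0.23 for Il20ra and -3.74 ± 0.11 for Il20rb.

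Il22ra1, which pairs with IL-20RB for IL-20 and IL-24 and with IL-10RB for IL-22, fell least of the receptor subunits. WT controls had 65.2 to 158 cpm (median 129) and UV-exposed WT mice 45.6 to 75.1 cpm (median 55.0). KO controls had 94.6 to 194 cpm (median 141) and UV-exposed KO mice 29.6 to 78.5 cpm (median 47.4). In WT epidermis 1 UV-exposed mouse lay within the range of the controls, while in KO epidermis the treatments did not overlap. The level was 2.26-fold lower in WT (log2 fold change -1.17 ± 0.16, adjusted p = 3.69e-07) and 2.81-fold lower in KO epidermis (-1.49 ± 0.17, adjusted p = 6.64e-09).

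Lif, which acts through LIFR and gp130, was low but clearly detected in all libraries. WT controls had 1.5 to 3.94 cpm (median 2.81) and UV-exposed WT mice 10.7 to 30.0 cpm (median 21.2). KO controls had 1.98 to 3.49 cpm (median 2.65) and UV-exposed KO mice 14.7 to 23.6 cpm (median 19.7). The treatments did not overlap, and the rise was 7.34-fold in WT (log2 fold change 2.88 ± 0.19, adjusted p = 2.03e-13) and 7.3-fold in KO epidermis (2.87 ± 0.19, adjusted p = 2.53e-13).

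Il6 was close to the detection limit. The 8 WT controls held 1 read between them and the 8 KO controls 4 reads, against 52 and 89 reads in the UV-exposed mice, every one of which held at least 1 read. The highest UV-exposed mouse had 0.45 cpm in WT and 0.82 cpm in KO epidermis, and 7 of 8 UV-exposed mice were above every control in each genotype. Over both genotypes the depth-corrected ratio was 27.3, with an exact 95% counting interval of 11.4 to 85.4. With no filter on low counts, Il6 was called higher in both genotypes (log2 fold change 4.78 ± 0.88, adjusted p = 3.98e-05 in WT, and 4.00 ± 0.74, adjusted p = 4.69e-05 in KO epidermis, where 40.3% and 39.8% of the genes were called).

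Osmr, the receptor subunit that pairs with gp130 for oncostatin M, rose where the IL-20 receptor subunits fell. It had 39.6 to 72 cpm (median 49.3) in WT controls and 179 to 225 cpm (median 198) after UV. In KO epidermis it had 33.6 to 91.2 cpm (median 54) without UV and 143 to 214 cpm (median 163) after UV. No UV-exposed mouse overlapped a control. The rise was 3.82-fold in WT (log2 fold change 1.93 ± 0.13, adjusted p = 2.97e-13) and 2.88-fold in KO epidermis (1.53 ± 0.13, adjusted p = 3.15e-11).

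Socs3, the feedback inhibitor, rose in both genotypes. WT controls had 20.1 to 36.1 cpm (median 28.5) and UV-exposed WT mice 99.9 to 147 cpm (median 128). KO controls had 22.1 to 44.6 cpm (median 36.5) and UV-exposed KO mice 81.7 to 171 cpm (median 110). The treatments did not overlap in either genotype. The fold change was 4.42 in WT (log2 fold change 2.14 ± 0.15, adjusted p = 4.88e-13) and 3.3 in KO epidermis (1.72 ± 0.15, adjusted p = 3.4e-11). In all, the UV-exposed and control mice did not overlap for 7 of the 10 genes in WT and for 7 of the 10 in KO epidermis, where 43.4% and 35.1% of the tested genes showed no overlap. The genes with overlap were Il19, Il6 and Il22ra1 in WT, and Il19, Il6 and Il20 in KO epidermis. Il20, counted among the 7 in WT, had passed the filter through UV-exposed mice alone.

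Per kilobase of annotated exon the order of the genes changed with UV. In WT controls the median level was highest for Il20rb (136 cpm per kb), followed by Il22ra1 (50.1), Il20ra (23.9), Socs3 (9.87) and Osmr (4.07). Lif stood at 0.65, Il19 at 0.42, Il24 at 0.08 and Il20 at 0.03 cpm per kb, and the ranges of these last 4 genes overlapped between neighbours. The ranges of Il22ra1 and Il20ra overlapped too, whereas Il20rb stood clear above both. After UV, Socs3 led with a median of 44.2 cpm per kb, and Il24 followed at 40.9 with an overlapping range. Il22ra1 (21.4), Osmr (16.3), Il20rb (11.2), Lif (4.88), Il19 (3.54), Il20ra (1.03) and Il20 (0.65) came next in WT epidermis. Il24 therefore went from below each of the receptor subunits to above Il20rb and Il20ra, with no overlap between mice. In KO epidermis the medians after UV were 47.2 for Il24, 38.2 for Socs3, 10.5 for Il20rb and 0.95 cpm per kb for Il20ra.

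No difference between the genotypes passed the test for any of these genes. Without UV, 0 of the 9 tested genes were called between KO and WT epidermis, where 0.206% of all tested genes were called. After UV, 0 of 9 were called against 3.31% of all genes, and the genotype-by-UV interaction was called for 0 of 9 against 0.765%. At an unadjusted p under 0.05, edgeR gave 0 of the 9 genes without UV, 1 after UV (Osmr) and 2 for the interaction (Osmr and Socs3). Of all 15546 tested genes, 1324, 3121 and 3042 passed that mark in the same 3 comparisons. Passing it therefore does not set Osmr and Socs3 apart. DESeq2 and limma-trend called none of the 9 in these 3 comparisons either. Osmr rose by 0.41 ± 0.18 less on the log2 scale in KO than in WT epidermis (adjusted p = 0.204), and Socs3 by 0.42 ± 0.20 less (adjusted p = 0.248). After UV, Osmr was lower in KO epidermis by 0.26 ± 0.13 on the log2 scale (adjusted p = 0.247). Without 54F, the interaction was -0.41 ± 0.18 for Osmr and -0.46 ± 0.21 for Socs3. With interaction standard errors of 0.93 for Il19, 0.79 for Il20 and 0.70 for Il24, a genotype difference of more than 1 log2 unit could go undetected for the ligands, whereas that of Il20rb was -0.16 ± 0.14.

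The UV response had the same direction in males and females for each of the 9 tested genes. Leaving aside Il20, whose test carries no weight, it passed the test in each sex and genotype with 1 exception. Il19 rose in WT females (3.87 ± 1.09, adjusted p = 0.00321) and KO females (3.41 ± 1.03, adjusted p = 0.00572), while the values in WT males (1.15 ± 0.95, adjusted p = 0.3) and KO males (1.27 ± 0.94, adjusted p = 0.251) did not pass. The share of all tested genes that passed in each sex and genotype was not counted. Over both sexes, 34.5% were called higher and 36.5% lower in WT epidermis, and 37.3% and 33.5% in KO epidermis. Passing by itself therefore says little about these genes. The difference between the sexes was itself tested, and the sex-by-UV interaction of Il19 did not pass (2.43 ± 0.97, adjusted p = 0.635). Over all 15546 genes, edgeR called 0 for this interaction (0% of genes, 1091 at an unadjusted p under 0.05), DESeq2 called 22 and limma-trend 2, none of them among the 9 members. Il24 had a log2 fold change of 9.46 ± 0.76 in WT females, 6.69 ± 0.60 in WT males, 8.04 ± 0.65 in KO females and 6.46 ± 0.59 in KO males, with an interaction of 2.18 ± 0.68 (adjusted p = 0.49).

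Before UV exposure both genes differed in level from mouse to mouse. Without UV, Il24 had 0.00 to 0.16 cpm in WT females against 0.04 to 1.31 cpm in WT males, and 0.00 to 0.74 cpm in KO females against 0.04 to 1.07 cpm in KO males, so that the sexes overlapped in both genotypes. Il24 was lower in control females than in control males (log2 fold change -2.04 ± 0.60, adjusted p = 0.0389), the 1 member called in this comparison, where 4.64% of all tested genes were called lower in females. It rests on at most 40 reads in a mouse. In the same comparison the 4 endothelium markers were all called higher in females (median log2 fold change 2.87), and the 4 skeletal muscle markers had a median of 3.6 with none called. The summed endothelium markers were low, at 0.41 to 2.93 cpm in WT and 0.48 to 11.5 cpm in KO controls. The number of all genes called between the sexes without UV is given in the last section. The part of these tissues in the Il24 difference was not tested. Leaving out any one of 11 mice ended the call (44F, 60F, 69F, 44M, 67M, 74F, 58M, 61F, 71F, 73F or 56M), with adjusted p up to 0.12 without 56M, as did limma-trend (adjusted p = 0.0598). Il19 had 0.00 to 0.56 cpm in WT control females and 0.44 to 5.37 cpm in WT control males, and its difference of -2.02 ± 0.72 did not pass (adjusted p = 0.0845). After UV, 0 of the 9 genes were called between females and males, against 3.03% of all genes, 0 of 9 had an unadjusted p under 0.05 by edgeR, and DESeq2 and limma-trend called none. Il24 then differed by 0.14 ± 0.31 between the sexes.

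**Figure D3:**
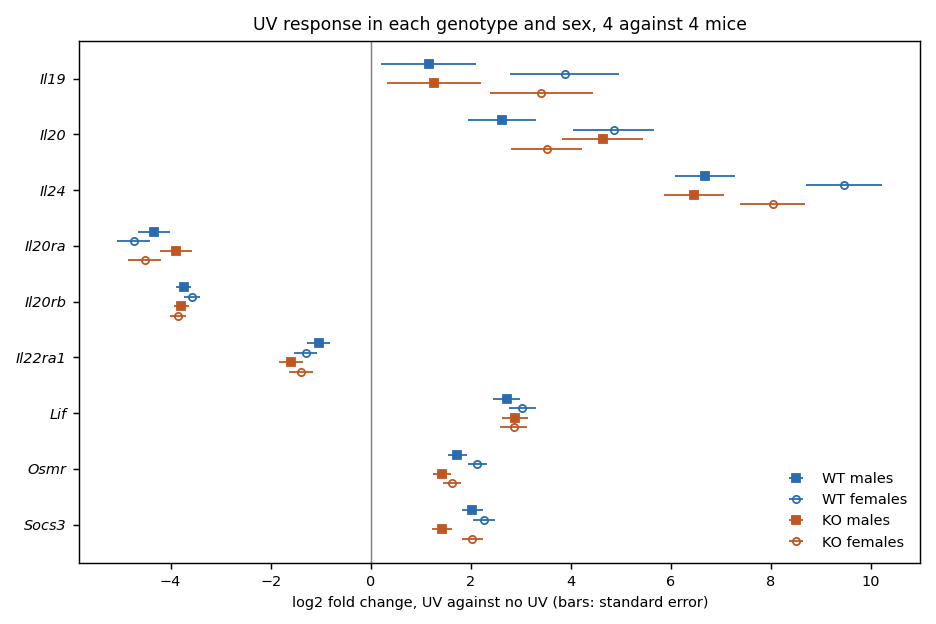
Log2 fold change of UV against no UV (horizontal axis, bars are standard errors) for the 9 tested genes in WT (blue) and KO (orange) males (filled squares) and females (open circles), 4 UV-exposed against 4 control mice each. The strata lie close together for Il20rb, Il22ra1 and Lif and spread furthest for Il19, Il20 and Il24.

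The other genes of these pathways were described with lists taken from general knowledge. A gene that reached 1 cpm in 1 treatment alone had to differ between treatments to be tested. The lists were not screened for such genes. Among the other ligands of the IL-10 and IL-20 family, 0 of 5 passed the filter: Il22, its copy Iltifb, Ifnl2 and Ifnl3 held 0 reads in all controls and at most 2 reads in all UV-exposed mice together. IL-22 transcripts were therefore at or below the limit of detection in these libraries, and a total of 0 among the controls allows up to 3 reads. Of the 4 other receptors of that family, Ifnlr1 (the specific chain of the interferon lambda receptor) fell by 1.03 ± 0.10 in WT and by 1.22 ± 0.10 in KO epidermis on the log2 scale. Il22ra2, which encodes a soluble binding protein that captures IL-22, fell by 1.06 ± 0.31 and by 1.04 ± 0.31. Il10rb, the shared chain that partners IL-22RA1 for IL-22, was at a median of 32.2 cpm without and 29.9 cpm with UV in WT epidermis and was called in neither genotype with all mice. Without 54F, which held 40.9 cpm against at most 33.7 cpm in the other UV-exposed KO mice, Il10rb was lower after UV in KO epidermis (log2 fold change -0.30 ± 0.10, adjusted p = 0.00954). Il10ra was called in KO epidermis alone (0.78 ± 0.23, adjusted p = 0.00376, against 0.05 ± 0.23 in WT), with an interaction that passed no test (adjusted p = 0.216). It stood at 23.8 cpm in 54F, and without that mouse its KO log2 fold change was 0.53 ± 0.20.

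Of the other IL-6 family ligands, 6 of 10 were tested. Clcf1, which encodes a cytokine that signals through the CNTF receptor, rose from a median of 7.90 to 162 cpm in WT (log2 fold change 4.55 ± 0.16) and from 6.78 to 138 cpm in KO epidermis (4.4 ± 0.16). Osm, the ligand of OSMR, a product mainly of myeloid and T cells, rose from a median of 0.05 to 1.68 cpm in WT (4.85 ± 0.62) and from 0.04 to 3.18 cpm in KO epidermis (5.39 ± 0.62). Its medians without UV lay far below the 1 cpm of the filter. If UV-exposed mice alone took Osm past the filter, its test carries no weight. Osm stood at 6.75 cpm in 54F, against at most 4.2 cpm in the other UV-exposed KO mice. Without 54F its KO log2 fold change was 5.26 ± 0.62. Il11 rose as well (1.25 ± 0.24 and 1.56 ± 0.24), and Ctf1 fell by 1.62 ± 0.18 and by 1.15 ± 0.18. In all 3 rose, Osm among them, and 2 fell in WT epidermis, where 34.5% of all tested genes were called higher and 36.5% lower. In KO epidermis 3 rose and 1 fell, against 37.3% and 33.5% of all tested genes.

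Of the 7 other IL-6 family receptors, 4 fell in each genotype, where 36.5% of all tested genes were called lower in WT and 33.5% in KO epidermis. Il6ra fell from a median of 155 to 40.9 cpm in WT and from 143 to 40.8 cpm in KO epidermis, with log2 fold changes of -1.97 ± 0.09 and -1.81 ± 0.09. Il6st, which encodes gp130 itself, fell by 0.58 ± 0.11 and by 0.65 ± 0.12, and Lifr, the LIF receptor chain, by 2.21 ± 0.29 and by 1.53 ± 0.28. Il11ra1 fell by 1.73 ± 0.33 and by 1.03 ± 0.32. None of the 7 rose in WT, and Il27ra alone rose in KO epidermis (0.88 ± 0.29, adjusted p = 0.00945). Lifr stood at 44 cpm and Il11ra1 at 26.9 cpm in 54F, against at most 12.6 and 7.95 cpm in the other UV-exposed KO mice, and without 54F their KO log2 fold changes were -2.02 ± 0.19 and -1.5 ± 0.27.

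Of the 10 tested kinase and STAT genes, 6 fell and 1 rose in WT and 6 fell and 2 rose in KO epidermis, where 36.5% and 33.5% of all tested genes were called lower and 34.5% and 37.3% higher. Without 54F, 2 rose in WT. Stat3 was among those that passed no test, at a median of 386 cpm without and 423 cpm with UV in WT and of 415 and 391 cpm in KO epidermis (log2 fold change 0.17 ± 0.09, adjusted p = 0.0877, and -0.11 ± 0.09, adjusted p = 0.244). Jak1, which serves all of these receptors, fell by 0.62 ± 0.08 and by 0.76 ± 0.08, and Tyk2 by 0.52 ± 0.07 and by 0.46 ± 0.07, whereas Jak2 rose by 0.81 ± 0.11 and by 0.88 ± 0.11. Stat2 fell by 0.97 ± 0.17 and by 1.00 ± 0.17. It stood at 38.5 cpm in 54F, against at most 18.2 cpm in the other UV-exposed KO mice. Without 54F its KO log2 fold change was -1.215 ± 0.126.

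Among the 12 other feedback inhibitors, 8 rose and 1 fell in WT, and 7 rose and 2 fell in KO epidermis (9 rose in WT without 54F). Of all tested genes, 34.5% were called higher and 36.5% lower in WT, and 37.3% and 33.5% in KO epidermis. Socs1 rose from a median of 1.52 to 7.96 cpm in WT (2.42 ± 0.22) and from 1.25 to 7.40 cpm in KO epidermis (2.21 ± 0.22), a log2 fold change close to that of Socs3. Socs5 rose by 1.98 ± 0.06 in both genotypes and Socs6 by 1.10 ± 0.07 and by 0.94 ± 0.07, while the phosphatase gene Ptpn6, known from blood cells, fell by 0.82 ± 0.09 and by 0.68 ± 0.09. Ptpn6 stood at 41.8 cpm in 54F, against at most 27 cpm in the other UV-exposed KO mice, and without 54F its KO log2 fold change was -0.78 ± 0.07. Socs2 rose by 0.63 ± 0.20 and by 1.14 ± 0.20 and was the 1 gene of the list called between genotypes after UV, with KO epidermis higher by 0.82 ± 0.19 (adjusted p = 0.0227). Without 54F that difference was 0.77 ± 0.20 and missed the threshold (adjusted p = 0.0508).

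Of 17 genes that STAT3 is known to induce, 12 rose and none fell in WT epidermis, and 14 rose and none fell in KO epidermis. Among all tested genes, 34.5% were called higher and 36.5% lower in WT, and 37.3% and 33.5% in KO epidermis. The log2 fold changes of the list had medians of 0.67 and 0.97, where the medians over all tested genes were -0.01 and 0.09. Without 54F, 16 of the genes were tested, 14 rose in WT and 13 in KO epidermis, and the medians were 0.87 and 0.93. Timp1, an inhibitor of metalloproteinases, rose by 2.56 ± 0.31 and by 3.18 ± 0.32, Il4ra by 2.17 ± 0.16 and by 1.94 ± 0.16, and Bcl3, a regulator of NF-κB, by 1.76 ± 0.18 and by 1.24 ± 0.17 on the log2 scale. Many genes of this list answer to other factors as well, Fos, Junb, Ccnd1 and Vegfa among them. Myc passed no test, with medians of 59.3 cpm without and 57.4 cpm with UV in WT and of 60.2 and 53.2 cpm in KO epidermis.

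The 13 tested genes known to rise in keratinocytes under IL-22 or IL-20 rose in both genotypes, the median being 4.29 on the log2 scale in WT and 4.56 in KO epidermis. Over all tested genes, 34.5% were called higher in WT and 37.3% in KO epidermis. Genes of this list that passed the filter through UV-exposed mice alone had to rise, and they were not set aside from the 13. Defb4, for example, held at most 3.28 cpm in the UV-exposed KO mice other than 54F. Krt6a and Krt16, keratins of the activated epidermis, rose from medians of 645 and 876 cpm to 22684 and 13315 cpm in WT. The psoriasin gene S100a7a rose by 5.93 ± 0.46 in WT and by 4.95 ± 0.43 in KO epidermis, the beta-defensin gene Defb3 by 5.29 ± 0.55 and by 5.36 ± 0.56, and the neutrophil attractant gene Cxcl1 by 6.01 ± 0.37 and by 6.17 ± 0.38. S100a8 and S100a9 belong to this list but are also abundant in neutrophils, whose summed markers had medians of 29.9 cpm without and 37.3 cpm with UV in WT and of 33.3 and 38.8 cpm in KO epidermis. Of the 4 neutrophil markers tested singly, 2 were called higher in WT, and 3 higher and 1 lower in KO epidermis. The shares of all tested genes were 34.5% higher in WT, and 37.3% higher and 33.5% lower in KO epidermis. The part of neutrophils was not tested. Of the 6 differentiation genes known to fall under these cytokines, 5 fell and 1 rose in each genotype, where 36.5% of all tested genes were called lower in WT and 33.5% in KO epidermis. Lor fell by 2.38 ± 0.22 and by 2.54 ± 0.22 and Flg by 1.67 ± 0.18 and by 2.00 ± 0.19, while the protease gene Klk7 rose by 0.99 ± 0.08 and by 0.63 ± 0.08.

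**Figure D4:**
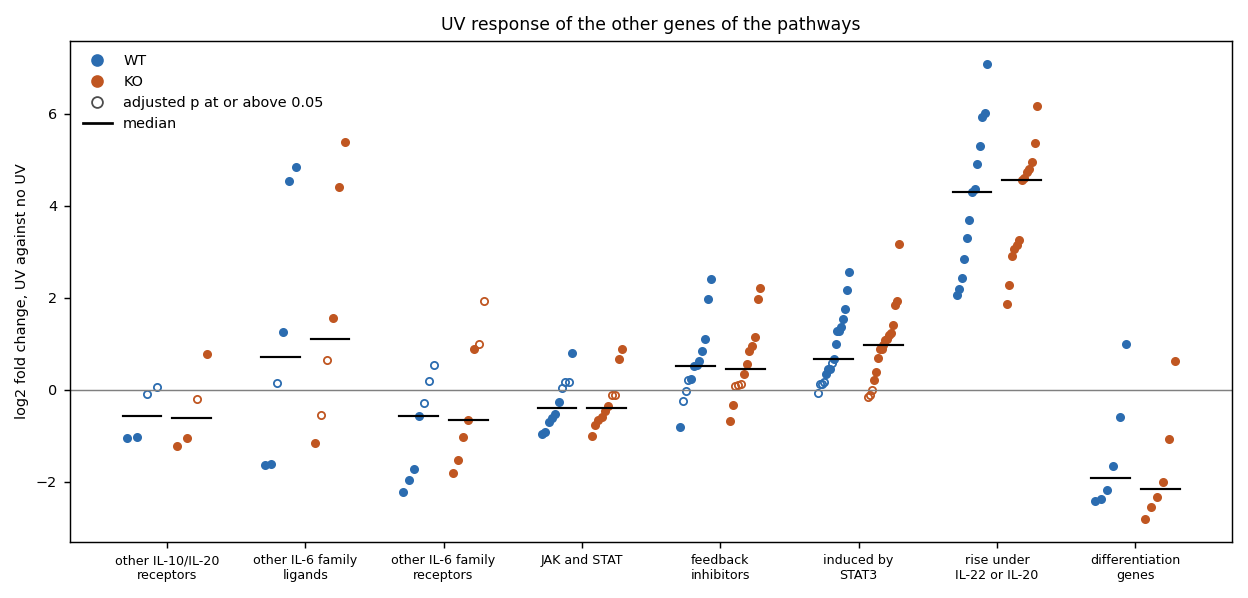
Log2 fold change after UV (vertical axis) of each tested gene of 8 lists in WT (blue) and KO (orange) epidermis. Filled points passed an adjusted p under 0.05, open points did not, and bars are medians, the highest being 4.29 and 4.56 for genes known to rise under IL-22 or IL-20.

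Some members also varied together between mice of the same group. After the mean of each of the 8 groups was subtracted from the log2 cpm, the correlation over the 32 mice, which share library, depth and dissection, was 0.69 between Il19 and Il24, 0.59 between Il20rb and Il22ra1, 0.52 between Il24 and Osmr and 0.48 between Il20ra and Il20rb. Between Il19 and Il24 it was 0.71 among the 16 controls and 0.49 among the 16 UV-exposed mice, and between Il20rb and Il22ra1 it was 0.71 and 0.55. Between Il24 and Osmr it was 0.61 among the controls and -0.10 among the UV-exposed mice, whereas between Il20ra and Il20rb it was -0.04 among the controls and 0.77 among the UV-exposed mice. Among the 13085 genes with a mean of at least 1 cpm, those most like Il24 were Has3 (a hyaluronan synthase, r = 0.83), Akr1b8 (0.78), Ppp1r9b (0.77), Agps (0.77) and E2f7 (0.77). Among those most like Il19 were Tcaf2 (0.89), Il13ra2 (0.87), Stfa3 (0.87) and 2610528A11Rik (0.85). For Socs3 the values were lower, led by Nppb (0.64), A530084C06Rik (0.64), Sbno2 (0.62), Atp9a (0.62) and Gm17354 (0.60). These values are descriptions without a test.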

How the data were processed

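RNA sequencing libraries of the dorsal epidermis of 32 mice (8 groups of 4) were analysed from the deposited read counts per gene. Per the labels and methods of the study, the authors trimmed reads with cutadapt 1.8, aligned them with STAR 2.5.3a and counted whole reads per gene with HTSeq 0.9.1, and the deposited counts were neither normalized nor filtered. The submitters' processing notes name GRCm38, while the study's methods name a human build. The gene identifiers are those of the mouse, and coordinates here come from the GENCODE M21 annotation of GRCm38. Per the labels the RNA quality numbers lay between 6.4 and 8.4, while the study's methods state a higher range. Reads that matched no gene were 6.8% to 9.75% of uniquely aligned reads and entered neither library sizes nor tests.

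Groups came from the genotype, treatment and sex labels, with no pairing between mice. KO mice are described as littermates of WT mice, but which mice shared a litter or cage is not given in the sources used here. The filter kept genes that reached 1 cpm in 1 or more of the mice. Counts were scaled by TMM and fitted with a mean per group over all 32 mice in edgeR 4.0.16 (quasi-likelihood test, R 4.3.3), with Benjamini-Hochberg adjustment of p-values across all 15546 genes and calls at an adjusted p under 0.05. Standard errors are the log2 fold change divided by the root of the F statistic. Levels are cpm on the TMM-scaled library sizes. The 48 pairs of replicate mice differed by far more than sampling noise (chi-square per degree of freedom at least 19.5), so no library was counted as a repeat. Alternatives were DESeq2 1.42.0, limma-trend (limma 3.58.1), another normalization, other filters, subsets of mice and leaving out each mouse. The fit was tested on simulated data drawn from these libraries. Ratios of summed reads have exact 95% binomial intervals for counting error. Named genes are the 10 members, Ppard, the genes of 9 pathway lists that passed the test or serve as background, and the 5 genes of highest within-group correlation with Il24, Il19 and Socs3. The values of 3 of these genes are not reported here. The neighbours of the ligand genes were picked with their values in view. The members and lists were chosen with earlier results of these data known. Promoters came from RefSeq (GRCm38.p6).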

Additional observations from a re-analysis of the deposited data

Results flagged for a closer look

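Each of the 10 genes was checked in the 8 groups of 4 mice for a highest or lowest mouse far from the other 3, relative to the range of its group, in 79 combinations of gene and group that varied at all. This flagged 6 combinations. Chance alone flags about 1 in 20 groups, a rate that does not hold for counts near 0, as those of Il6 and Il20 were. Il19 stood at 5.37 cpm (143 reads) in the unexposed WT male 56M, where the next mouse had 0.88 cpm. Il20ra stood at 4.72 cpm (131 reads) in the UV-exposed KO male 59M, where the next mouse had 2.33 cpm. Il20 was at 0.00 cpm in the unexposed WT female 61F, where the next mouse had 0.04 cpm. Il6 was at 0.08 cpm (2 reads) in the unexposed KO female 60F, at 0.08 cpm (2 reads) in the unexposed KO male 34M and at 0.04 cpm (1 read) in the unexposed WT female 63F, with 0.00 cpm in the other mice of their groups. A lone mouse with a read among mice with none is flagged whatever its count, so the Il6 flags carry no weight. That of Il20 rests on 0 reads against 1 read.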

How the results depend on the processing

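The UV-induced changes of the 9 tested genes kept their direction and their calls in both genotypes when any 1 mouse was left out and under every other setting tried, except for Il19 with males only (log2 fold change 1.18, adjusted p = 0.291 in WT, and 1.29, adjusted p = 0.246 in KO epidermis). For Il20 the call carries no weight under the filter, which it passed through UV-exposed mice alone. No genotype difference or interaction of these genes was called under any setting. Among female against male without UV, the number of the 9 genes called was 1 here, 3 with DESeq2 and 0 with limma-trend, with filterByExpr, with no filter, with only WT mice and with only KO mice, and 0 to 1 when 1 mouse was left out. For Il24 in that comparison the adjusted p was 0.0598 with limma-trend, 0.0563 with filterByExpr, 0.078 with no filter, 0.518 with only WT mice and 0.43 with only KO mice, and for Il19 it was 0.0355 with DESeq2. The cause was not tested. No paired analysis was possible because mouse numbers that recur, such as 44F and 44M, are identifiers with no stated pairing, and no pair of the 8 groups shares more than 1 of them.

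Uncalled differences near 0 changed sign under some settings. The genotype-by-UV interaction of Il19 was 0.20 with limma-trend and 0.10 with males only, and -0.97 to 0.18 when 1 mouse was left out. That of Il20 was -1.40 with females only. That of Lif was 0.16 with males only and -0.12 to 0.10 when 1 mouse was left out. After UV, KO against WT was -0.16 for Il24 with males only and 0.018 for Socs3 with females only, and Il24 in females against males was -0.20 with only WT mice.

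Over all genes, the number called between genotypes after UV was 514 (418 higher, 96 lower in KO), against 1116 with DESeq2, 260 with limma-trend, 263 with no filter, 7 with males only, 1383 with females only, 40 with only UV-exposed mice and 209 without 54F, and RLE normalization gave 376 higher and 159 lower. The interaction was called for 119 genes (80 higher, 39 lower), against 841 with DESeq2, 55 with no filter, 6 with males only and 12 with females only, and for 76 higher and 59 lower with RLE normalization. Without UV, 32 genes were called between genotypes, against 78 with DESeq2, 5 with males only, 2 with females only and 15 with only unexposed mice. Between the sexes, 1066 genes were called without UV, against 1676 with DESeq2, 653 with filterByExpr, 327 with no filter, 10 with only WT mice and 242 with only KO mice. After UV the number was 471 (293 higher, 178 lower in females), against 1196 with DESeq2, 239 with no filter, 11 with only WT mice, 1152 with only KO mice and 164 without 54F, and 282 higher and 292 lower with RLE normalization. Leaving out 1 mouse moved these counts to between 133 and 983 for the genotypes after UV, 56 and 346 for the interaction, 464 and 1753 for the sexes without UV and 117 and 1043 for the sexes after UV, with as few as 20 for the genotypes without UV. Depth limits Il6 and Il20 most, with at most 6 reads of Il20 and 2 of Il6 in any control.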
